A study of Mus musculus with 10 samples.

Results

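The enzymes that build sterols and fatty acids from acetyl-CoA, together with the proteins that regulate them, were followed as 34 genes in a transplanted mouse leukemia of T-cell precursors (T-ALL, T-cell acute lymphoblastic leukemia). They were chosen by gene symbol, all 34 were found among the 20813 genes of the deposited table, and all 34 had a mean value of at least 10 and were tested. By role they form 4 lists. The 6 regulators include the sterol carrier Stard4, and the 7 early sterol enzymes run from acetyl-CoA to farnesyl diphosphate. The 11 late sterol enzymes run from squalene to cholesterol, and 10 genes serve fatty acid synthesis, elongation and desaturation. RNA was sequenced from 10 leukemic spleens of C57BL/6 mice that, after sublethal irradiation, had received T-ALL cells with a conditional Sirt1 allele by vein. Sirt1 encodes an NAD-dependent protein deacetylase. In 5 samples, numbered 7, 8, 10, 11 and 12, the genotype label is Sirt1-deleted and the recipients had been given 3 mg of tamoxifen in corn oil per mouse by intraperitoneal injection. The other 5, the controls numbered 2 to 6, came from recipients of corn oil alone, with the same conditional allele. Tamoxifen and the deletion cannot be told apart in this design. The labels used here do not give the Cre driver, the age of the mice, or whether the leukemias descend from 1 primary tumour, so p-values measure the spread between these samples.

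Cells make cholesterol and fatty acids from the same precursor, cytosolic acetyl-CoA. SREBP transcription factors, encoded by Srebf1 and Srebf2, switch on both arms: SREBP2 mainly the sterol genes and SREBP1 mainly the fatty acid genes. When membrane sterol is low, SCAP carries SREBP from the endoplasmic reticulum to the Golgi, where proteases release the active factor, and INSIG proteins hold SCAP back when sterol is plentiful. Dividing leukemia cells use these pathways to supply new membranes.

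Of the 34 genes, 4 were higher and 6 were lower in the labelled Sirt1-deleted samples (limma on log2(value + 1), adjusted p under 0.05). Among all 15276 genes tested, 36.1% passed in either direction, 16.8% as higher and 19.4% as lower, so the members' 10 calls were no more frequent than the calls over the whole table. By arm, 3 of the 18 sterol enzymes passed (Mvd, Cyp51 and Msmo1), all as higher, a share close to the 16.8% of all genes. Of the 10 fatty acid genes 6 passed: 5 were lower (Acly, Acss2, Acaca, Elovl6 and Fads1) and Scd2 was higher. Without labelled Sirt1-deleted replicates 10 and 11, described below, 2 of the 18 sterol enzymes were higher and 3 were lower. In that fit 6 fatty acid genes were lower and none was higher, where 21% of all genes were higher and 24.5% lower. Scap was the regulator that passed, and it was lower. The median log2 difference was -0.08 for the regulators, 0.21 for the early sterol genes, 0.01 for the late sterol genes and -0.31 for the fatty acid genes, beside -0.00014 for all genes tested. No member differed by more than 1 on the log2 scale. In 7 members the groups did not overlap (3 higher, 4 lower), against 24% of all genes (11.1% higher, 12.9% lower); for these the exact two-sided permutation p was 0.00794, the smallest that this design can give. The split was sensitive to scaling: upper-quartile rescaling gave 10 higher and 6 lower members, with 3162 higher and 2272 lower genes in the whole table instead of 2562 and 2956. Quantile normalization gave 8 higher and 6 lower members. Hmgcs1, Idi1, Fdps and Fdft1 passed as higher under both rescalings, and Fasn and Elovl5 under the upper-quartile one.

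**Figure D1:**
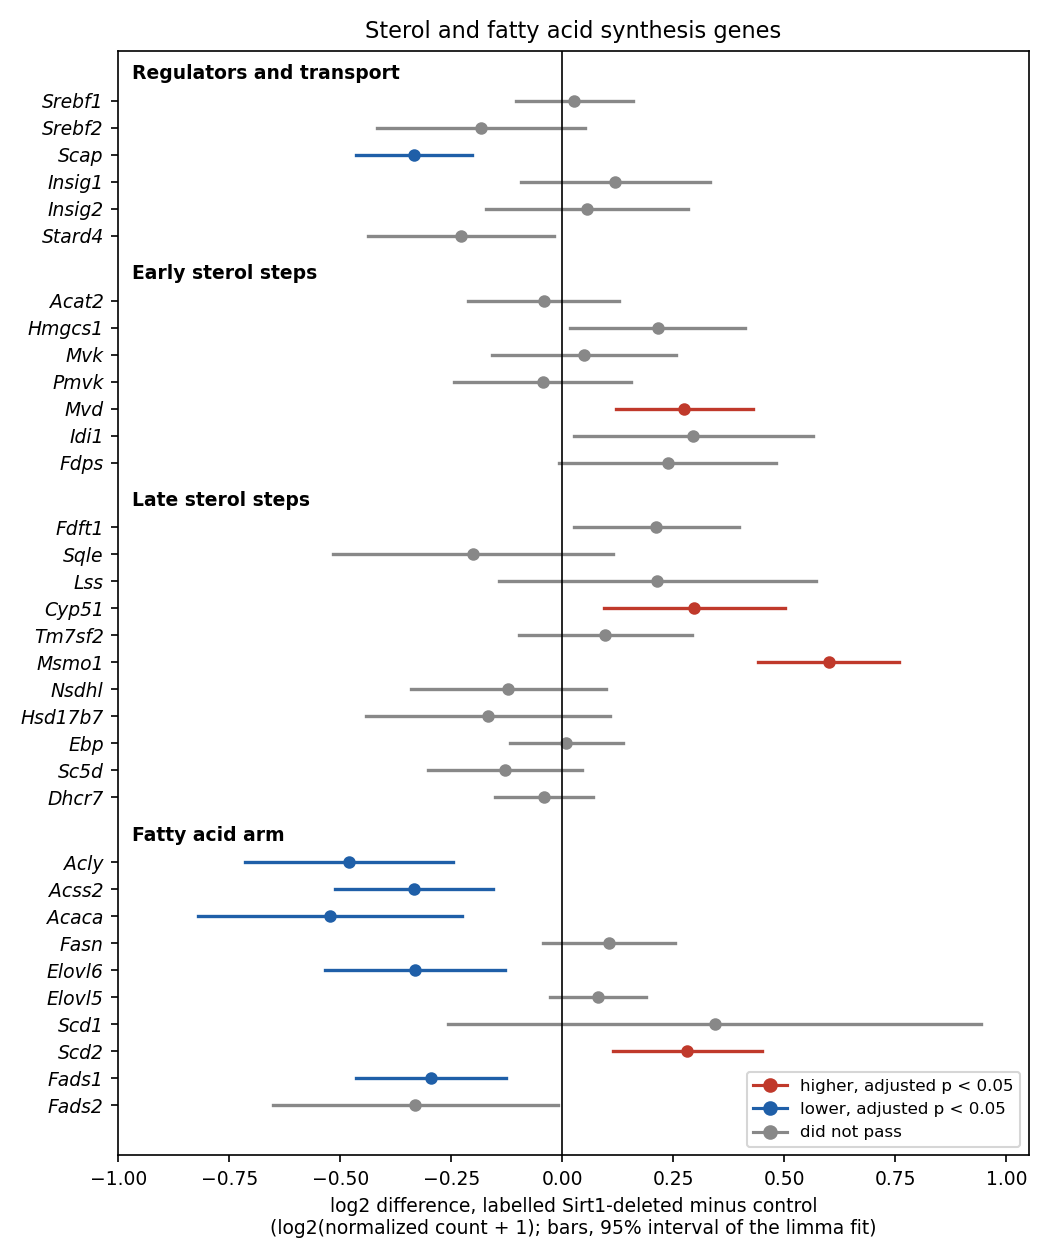
Log2 difference (labelled Sirt1-deleted minus control, on log2(value + 1)) of each of the 34 genes, grouped by role, with its 95% interval from limma as a bar. Genes that passed are drawn in red (higher) or blue (lower), and the others in grey. Msmo1 stands furthest to the right at 0.60 and Acaca furthest to the left at -0.52.

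Within the labelled Sirt1-deleted group, replicates 10 and 11 stood apart from replicates 7, 8 and 12 in these genes. They were the highest pair of their group in 26 of the 34 members (76.5%), against 23.7% of all genes tested, and the lowest pair in 1 member. This held for 5 of 6 regulators, 6 of 7 early sterol genes, 6 of 11 late sterol genes and 9 of 10 fatty acid genes. The standard deviation of the log2 values was larger in the labelled Sirt1-deleted group than in the controls for 28 members (82.4%), against 66.7% of all genes, with a median over the members of 0.18 against 0.09. The pair of replicates 10 and 11, and its omission, were chosen with earlier results of these data known. The shares of genes in which this pair ranked highest are therefore a description and no separate support. Leaving out the highest pair of a group lowers its mean in those genes. The fit without the pair and its adjusted p-values are therefore a description and no separate support. Without replicates 10 and 11 the difference was more negative in 33 of the 34 members, the exception being Tm7sf2, against 51.0% of the genes tested in both fits. That fit called 2 members higher and 12 lower, where 45.6% of all genes passed in either direction, 21% as higher and 24.5% as lower. It shared 8 calls with the fit of all 10 samples, added 6 lower members and lost Cyp51 and Scd2. Values without this pair are given beside each member whose call changed, and beside others whose difference moved.

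**Figure D2:**
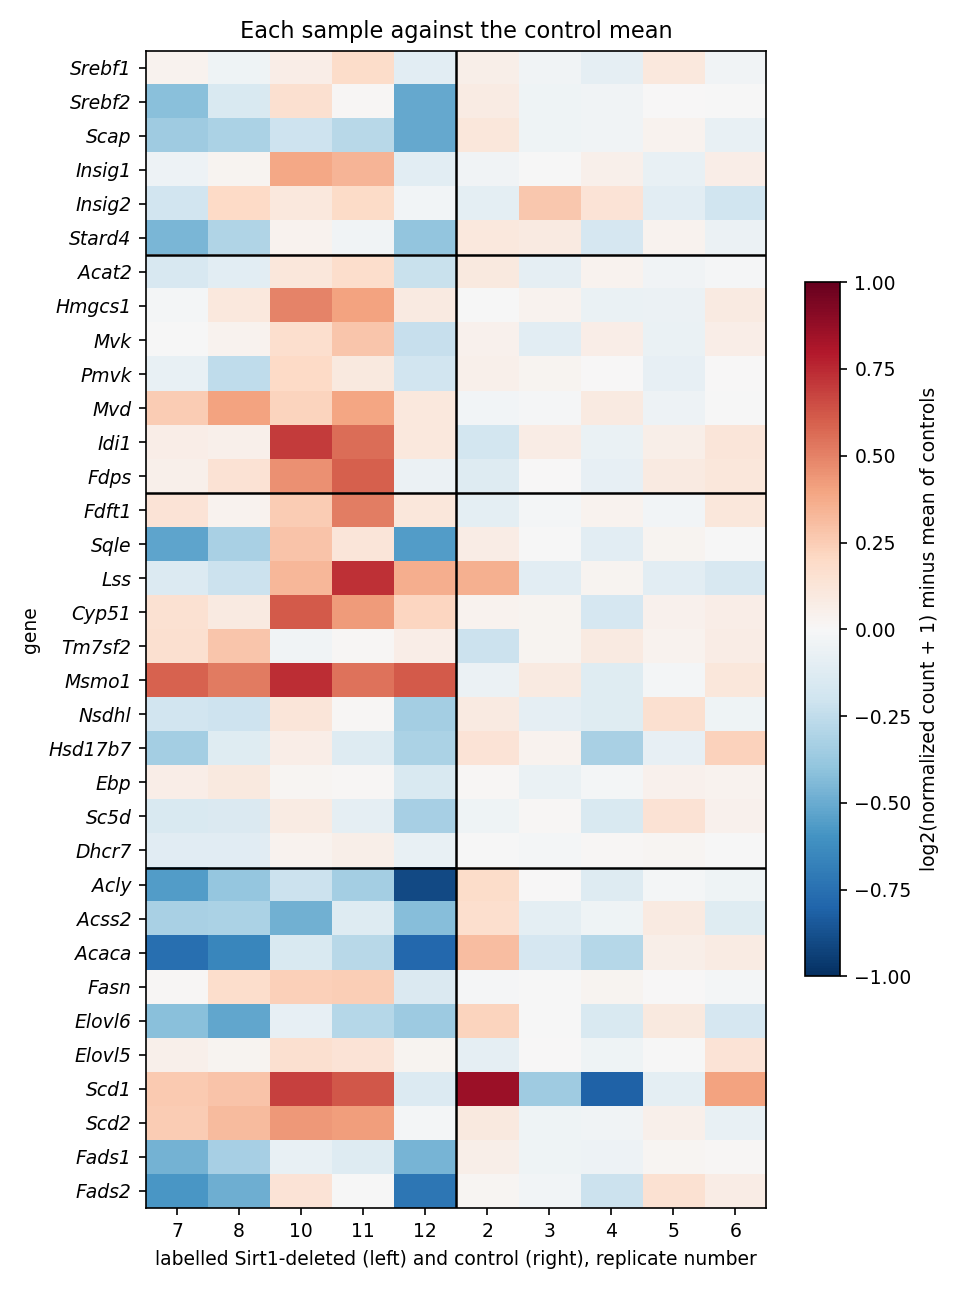
Log2(value + 1) of each gene in each of the 10 samples minus that gene's control mean, with genes in rows by role and samples in columns by group; the colour scale runs from -1 to 1. In most rows the columns of labelled Sirt1-deleted replicates 10 and 11 are shifted upward from those of replicates 7, 8 and 12.

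Several facts of the whole series bear on the members. Sirt1 itself measured 1873 ± 146 against 1810 ± 62.5 in the controls (SD, n = 5 each), a log2 difference of 0.05 with a 95% interval of -0.08 to 0.17 (exact two-sided permutation p = 0.413). The gene-level value therefore does not separate the groups, and since the labels do not say which exons are deleted it cannot check them. Of 14 neutrophil markers 13 were higher, with a summed level of 28974 to 99982 against 9166 to 12659 in the controls. Among the labelled Sirt1-deleted samples that sum was 28974 to 39752 in replicates 10 and 11 and 44849 to 99982 in the others. Of 16 macrophage and monocyte markers 13 were higher, with sums of 7333 to 8627 in replicates 10 and 11 and 8279 to 13463 in the others, against 3592 to 4106 in the controls. T lineage markers, which define the leukemia, were abundant in every sample, at 181739 to 198225 against 201546 to 211012, with 2 of 12 higher and 4 lower. None of 10 erythroid markers passed (32762 to 126723 against 37804 to 107879). Their sum was 77873 to 126723 in replicates 10 and 11 and 32762 to 102941 in the other labelled Sirt1-deleted samples, and without that pair 3 erythroid markers were lower, the list's median log2 difference moving from -0.17 to -0.49. Of the remaining lists, 1 of 8 B cell markers was higher (537 to 1094 against 462 to 951), and 2 of 7 stromal and endothelial markers were lower (4966 to 5510 against 5761 to 6668). None of the 2 adipocyte markers tested passed (266 to 414 against 234 to 379), and Adipoq reached at most 3.78 in any sample. Beside these counts, 16.8% of all genes were higher and 19.4% lower, and 21% and 24.5% without replicates 10 and 11. With lists this short, the erythroid, B cell, T lineage and stromal counts are not read as shifts of a cell type. The part of other cell types in the members' differences was not tested, and in bulk RNA fewer cells of a type and less RNA per cell cannot be told apart.

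The promoters of the genes were read because SREBP acts on sterol genes together with NF-Y, which binds CCAAT boxes, and SP1, which binds GC boxes. RefSeq windows of the 250 bases before the gene start (GRCm38.p6, the sequence of mm10) were matched by symbol for 27 of the 34 genes; Fads1, Fdft1, Fdps, Scd1, Scd2, Sqle and Stard4 had no window. Both strands were searched. The 27 genes have 35 windows, and a gene was counted when any of its windows matched. CCAAT was found in 21 of the 27 genes (77.8%), against 39.6% of 13260 genes with a window. By window, the share was 62.9% against 34.8%. GGGCGG was found in 22 of 27 (81.5% against 55.5%), the E-box CACGTG in 6 (22.2% against 8.58%), and CACNCCAC, the core of a sterol response element, in 3 (Acat2, Hmgcs1 and Insig1; 11.1% against 6.55%). The longer TCACNCCAC, which contains that core, was found in Hmgcs1. By role, CCAAT was present in 4 of 5 regulators, 5 of 6 early and 9 of 9 late sterol genes, and 3 of 7 fatty acid genes. In Dhcr7 the match was only in the window at chr7:143829964-143830213, which lies inside the gene by GENCODE M21. CCAAT was present in 3 of the 3 members with a window that were higher, in 1 of the 5 that were lower and in 17 of the 19 that did not pass. The higher ones (Cyp51, Msmo1 and Mvd) are sterol enzymes. The lower ones are Scap and the fatty acid genes Acss2, Acaca, Acly and Elovl6. Direction and role therefore cannot be told apart in these counts, and the share among all higher or lower genes was not computed. A match is a run of letters and not a measured binding site.

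The sequences below are examples from these members, 5′ to 3′ on the gene's strand. CCAAT (or ATTGG, its reverse complement) and CACNCCAC are in capitals. The whole windows of Hmgcs1 (a textbook SREBP target, 3 CCAAT boxes and the sterol core), Mvd (higher, 2 CCAAT boxes) and Acly (lower, none of these letters) are followed by 25-base stretches around each box of Msmo1 and Cyp51, which were higher, and of Acss2, the lower gene that has one. These 25-base stretches lie before the RefSeq start but overlap exons that GENCODE M21 gives to the same gene, so they are inside the transcribed region by that annotation.
Hmgcs1 chr13:119690101-119690350 (plus strand): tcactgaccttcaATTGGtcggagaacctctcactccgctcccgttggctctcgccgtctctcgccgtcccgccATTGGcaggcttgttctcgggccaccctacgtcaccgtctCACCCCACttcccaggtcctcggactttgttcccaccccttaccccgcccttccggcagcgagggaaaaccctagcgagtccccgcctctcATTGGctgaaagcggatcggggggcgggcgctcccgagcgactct
Mvd chr8:122443423-122443672 (minus strand): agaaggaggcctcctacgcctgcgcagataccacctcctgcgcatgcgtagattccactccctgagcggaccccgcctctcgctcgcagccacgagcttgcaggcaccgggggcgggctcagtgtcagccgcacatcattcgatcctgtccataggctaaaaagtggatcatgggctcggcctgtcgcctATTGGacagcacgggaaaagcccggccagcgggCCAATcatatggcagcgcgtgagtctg
Acly chr11:100528001-100528250 (minus strand): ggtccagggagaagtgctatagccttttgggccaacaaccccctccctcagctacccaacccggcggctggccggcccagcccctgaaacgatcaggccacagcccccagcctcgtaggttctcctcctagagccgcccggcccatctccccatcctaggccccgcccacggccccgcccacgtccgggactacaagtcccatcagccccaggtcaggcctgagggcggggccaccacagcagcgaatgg
Msmo1 chr8:64733724-64733748 (minus strand): atccgcgcagCCAATgactggcgcc
Msmo1 chr8:64733660-64733684 (minus strand): ttagcacggaCCAATcactgcacgg
Msmo1 chr8:64733619-64733643 (minus strand): gtggggcggaCCAATtacgacaggc
Cyp51 chr5:4104712-4104736 (minus strand): ctgtccgccaCCAATctggtcctga
Acss2 chr2:155517960-155517984 (plus strand): cctacccactATTGGatgcctagag

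Among the regulators, Scap was lower in the labelled Sirt1-deleted samples, and the other 5 did not pass. Values are deposited normalized counts throughout, listed for labelled Sirt1-deleted replicates 7, 8, 10, 11 and 12 and then for control replicates 2, 3, 4, 5 and 6. Scap, the SREBP escort (GRCm38 chr9:110333288-110384950, plus strand), measured 2946, 3012, 3253, 3103 and 2640 against 4078, 3660, 3671, 3847 and 3569. Every labelled Sirt1-deleted sample lay below every control, with replicate 12 lowest. The mean fell from 3765 ± 202 to 2991 ± 228 (SD, n = 5 each), a log2 difference of -0.33 (SE 0.06, limma adjusted p = 0.00193), and without replicates 10 and 11 it was -0.39 (limma adjusted p = 5.11e-04).

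Srebf2, which encodes the sterol-directed SREBP2, measured 5129, 6167, 7674, 6933 and 4802 against 7267, 6670, 6687, 6871 and 6848. Replicates 7, 8 and 12 lay below all controls, replicate 10 lay above them, and replicate 11 lay among them. Over all samples the log2 difference was -0.18 (SE 0.11, limma adjusted p = 0.203), and it was -0.36 (limma adjusted p = 0.00205) without replicates 10 and 11. Srebf1, which encodes the fatty-acid-directed SREBP1, measured 2972, 2824, 3047, 3298 and 2699 against 3021, 2834, 2728, 3127 and 2837. The groups overlapped almost entirely, with a log2 difference of 0.03 (95% interval -0.10 to 0.16, limma adjusted p = 0.76).

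Insig1, the sterol-sensitive anchor of SCAP and itself a SREBP target, measured 754, 795, 1025, 991 and 726 against 761, 779, 810, 742 and 818. Replicates 10 and 11 lay above all controls, replicates 7 and 8 lay among them, and replicate 12 lay just below them. Its log2 difference was 0.12 (95% interval -0.09 to 0.33, limma adjusted p = 0.361), and -0.04 without that pair. Insig2, the related anchor, measured 544, 712, 667, 706 and 608 against 579, 747, 682, 576 and 540. All 5 of its labelled Sirt1-deleted values lay within the controls' range, and the log2 difference was 0.06 (95% interval -0.17 to 0.28, limma adjusted p = 0.712).

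Stard4, a carrier that moves cholesterol between membranes, measured 1489, 1664, 2094, 2001 and 1558 against 2202, 2175, 1820, 2096 and 1959. Replicates 7, 8 and 12 lay below all controls, and replicates 10 and 11 lay among them. The log2 difference was -0.23 (SE 0.10, limma adjusted p = 0.0814), and -0.38 without the pair (limma adjusted p = 0.00153).

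The early sterol list turns acetyl-CoA into the isoprenoid farnesyl diphosphate. Mvd passed, as higher, and 5 of the 7 genes had a difference above 0. Mvd encodes mevalonate diphosphate decarboxylase (GRCm38 chr8:122433601-122443422, minus strand) and measured 717, 792, 700, 788 and 645 against 589, 595, 640, 580 and 597. Every labelled Sirt1-deleted sample lay above every control, replicate 12 by the smallest margin. The mean rose from 600.3 ± 23.1 to 728 ± 62.2 (SD, n = 5 each), a log2 difference of 0.28 (SE 0.07, limma adjusted p = 0.0109), and 0.25 without replicates 10 and 11 (limma adjusted p = 0.0239).

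Hmgcs1, the synthase that makes HMG-CoA, measured 2068, 2250, 2950, 2767 and 2228 against 2086, 2149, 2001, 2007 and 2234. Replicates 10 and 11 stood well above all other samples, replicate 8 lay just above the controls, and replicates 7 and 12 lay at or below the highest of them. Hmgcs1 differed by 0.21 on the log2 scale (SE 0.09, limma adjusted p = 0.0823), and 0.06 without the pair. Idi1, the isomerase that makes dimethylallyl diphosphate, measured 2697, 2670, 4190, 3801 and 2783 against 2274, 2720, 2462, 2688 and 2803. It had the same shape, with replicates 10 and 11 high and the other 3 within the controls' range. Its log2 difference was 0.30 (SE 0.12, limma adjusted p = 0.0802), and 0.07 without them.

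Fdps, farnesyl diphosphate synthase, measured 1876, 2008, 2491, 2746 and 1741 against 1663, 1821, 1713, 1935 and 1960. Replicates 10 and 11 were again the highest of all 10 samples, replicate 8 lay just above the controls, and replicates 7 and 12 lay among them. The log2 difference was 0.24 (SE 0.11, limma adjusted p = 0.118), and 0.04 without the pair. Acat2, Mvk and Pmvk, which join 2 acetyl-CoA and phosphorylate mevalonate, did not pass, with means of 1442, 464 and 449 against 1478, 446 and 459.6 and log2 differences of -0.04, 0.05 and -0.04. Without replicates 10 and 11, Acat2 passed as lower (-0.16, limma adjusted p = 0.0433), and Pmvk differed by -0.17 (limma adjusted p = 0.0997). The sign of Acat2 and Pmvk turned under upper-quartile rescaling, and that of Acat2 also under quantile normalization. The median of the list, 0.21, was 0.04 without replicates 10 and 11.

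The late sterol list runs from squalene to cholesterol, and 2 of its 11 genes, Msmo1 and Cyp51, were higher. These 2 enzymes act on lanosterol and its products: CYP51 removes the first methyl group and MSMO1 starts removal of the next ones. Msmo1 (GRCm38 chr8:64718139-64733792, minus strand) measured 640, 611, 712, 621 and 651 against 410, 453, 391, 419 and 461. Every labelled Sirt1-deleted sample lay well above every control, and replicate 11 was no higher than replicates 7 and 12. The mean rose from 427 ± 29.5 to 647 ± 39.4 (SD, n = 5 each), or by 51.6%, the highest log2 difference among the members at 0.60 (SE 0.07, limma adjusted p = 3.21e-04), and 0.57 without replicates 10 and 11 (limma adjusted p = 3.38e-04).

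Cyp51 (GRCm38 chr5:4081145-4104746, minus strand) measured 1536, 1470, 2113, 1863 and 1604 against 1419, 1409, 1232, 1423 and 1451. All 5 labelled Sirt1-deleted samples lay above the controls, replicate 8 by a small margin and replicates 10 and 11 by a wide one. The mean rose from 1387 ± 88 to 1717 ± 267 (SD, n = 5 each), a log2 difference of 0.30 (SE 0.09, limma adjusted p = 0.0265). The call was lost without replicates 10 and 11 (0.15, limma adjusted p = 0.0881), without replicate 11 (limma adjusted p = 0.0556) and without control replicate 4 (limma adjusted p = 0.0653).

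Fdft1, squalene synthase, measured 949, 885, 1029, 1226 and 934 against 803, 848, 884, 845 and 935. Replicates 7, 10 and 11 lay above all controls, and replicates 8 and 12 lay within the upper part of the controls' range. Fdft1 differed by 0.21 on the log2 scale (SE 0.09, limma adjusted p = 0.0718), and 0.10 without replicates 10 and 11. Sqle, squalene epoxidase, a rate-limiting step of the late pathway, measured 862, 990, 1507, 1350 and 840 against 1307, 1238, 1155, 1265 and 1238. Replicates 10 and 11 lay above all controls and replicates 7, 8 and 12 lay below all of them. Sqle differed by -0.20 on the log2 scale (SE 0.15, limma adjusted p = 0.297), and -0.47 without the pair (limma adjusted p = 4.50e-04).

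Lss, lanosterol synthase, measured 630, 598, 870, 1149 and 889 against 886, 643, 704, 642 and 618. The groups overlapped, with replicates 10, 11 and 12 and control replicate 2 high, and the log2 difference was 0.21 (95% interval -0.14 to 0.57, limma adjusted p = 0.329), and 0.004 without the pair. Dhcr7, which carries out a last reduction to cholesterol, measured 1482, 1480, 1642, 1668 and 1527 against 1603, 1579, 1614, 1621 and 1600. Replicates 7, 8 and 12 lay below the narrow range of the controls and replicates 10 and 11 lay above it. Dhcr7 differed by -0.04 on the log2 scale (SE 0.05, limma adjusted p = 0.556), and its sign turned under both rescalings. Tm7sf2, Nsdhl, Hsd17b7, Ebp and Sc5d, which reduce, demethylate, isomerize and desaturate the sterol ring, did not pass. Their log2 differences ranged from -0.17 for Hsd17b7 to 0.10 for Tm7sf2. Ebp, the isomerase that tamoxifen is known to bind, measured 1148 ± 75.1 against 1139 ± 35.6 (SD, n = 5 each), a log2 difference of 0.01 with a 95% interval of -0.12 to 0.14. Without replicates 10 and 11, Sc5d was lower (-0.21, limma adjusted p = 0.0491).

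**Figure D3:**
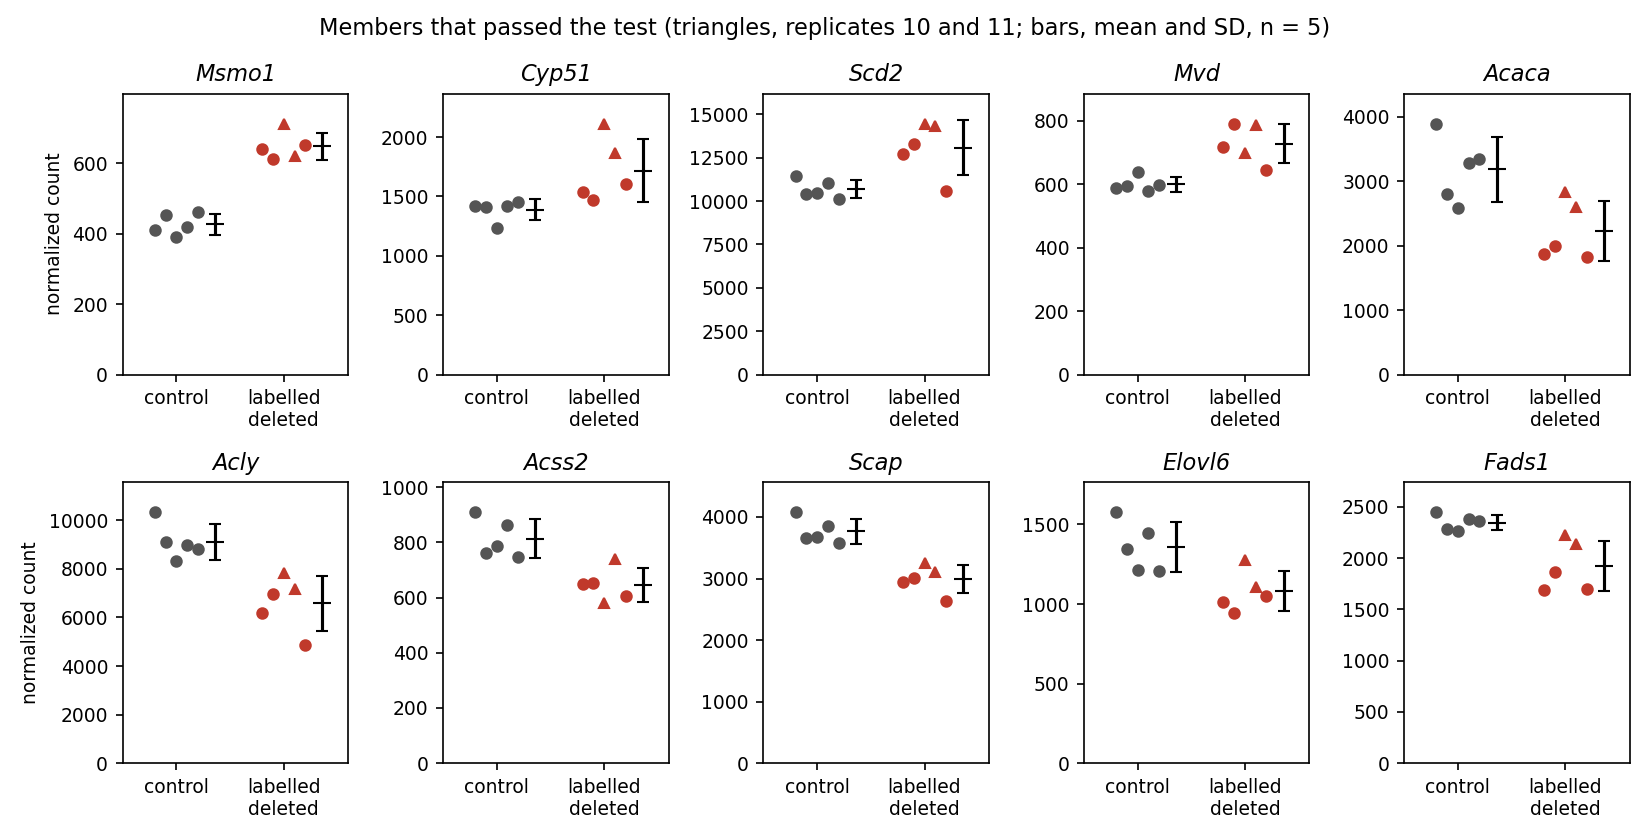
Deposited normalized counts of the 10 genes that passed, 1 panel per gene, with a point for each sample, triangles for labelled Sirt1-deleted replicates 10 and 11, and the mean ± SD of each group. Msmo1, Mvd, Cyp51, Scap, Acly, Acss2 and Fads1 show no overlap between the groups; in Acaca, Elovl6 and Scd2 at least 1 sample crosses.

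The fatty acid arm had 5 genes lower and 1 higher among 10, and the lower ones include the enzymes that supply and commit acetyl-CoA to fatty acids. Acly, ATP citrate lyase, which makes cytosolic acetyl-CoA from citrate (GRCm38 chr11:100476353-100528000, minus strand), measured 6173, 6952, 7812, 7176 and 4858 against 10338, 9090, 8323, 8978 and 8808. All 5 labelled Sirt1-deleted samples lay below all controls, with replicate 12 lowest. The mean fell from 9107 ± 747 to 6594 ± 1134 (SD, n = 5 each), a log2 difference of -0.48 (SE 0.11, limma adjusted p = 0.00545), and -0.62 without replicates 10 and 11 (limma adjusted p = 7.41e-04).

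Acss2, the synthetase that makes acetyl-CoA from acetate (GRCm38 chr2:155517948-155585724, plus strand), measured 649, 653, 581, 741 and 605 against 910, 760, 788, 864 and 748. The groups did not overlap, although replicate 11 came close to control replicate 6. The mean fell from 814 ± 70.0 to 646 ± 61.1 (SD, n = 5 each), a log2 difference of -0.33 (SE 0.08, limma adjusted p = 0.00834). Acaca, acetyl-CoA carboxylase, the committed step of fatty acid synthesis (GRCm38 chr11:84129672-84401651, plus strand), measured 1866, 2000, 2833, 2602 and 1829 against 3890, 2800, 2589, 3286 and 3337. Replicates 10 and 11 lay within the controls' range and the other 3 lay below it. Acaca differed by -0.52 on the log2 scale (SE 0.14, limma adjusted p = 0.0112), and -0.73 without that pair (limma adjusted p = 4.50e-04).

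Fasn, the synthase that builds palmitate, did not pass. It measured 9351, 10495, 10953, 10992 and 8411 against 9232, 9276, 9473, 9313 and 9165. Replicates 8, 10 and 11 lay above the narrow range of the controls and replicate 12 lay below it. The log2 difference was 0.10 (95% interval -0.04 to 0.25, limma adjusted p = 0.253), and 0.01 without replicates 10 and 11; under upper-quartile rescaling Fasn passed as higher. Elovl6, which extends palmitate (GRCm38 chr3:129532355-129638495, plus strand), measured 1013, 945, 1278, 1109 and 1052 against 1578, 1349, 1217, 1447 and 1205. Replicate 10 lay within the controls' range and the other 4 below it. The log2 difference was -0.33 (SE 0.09, limma adjusted p = 0.0161), and -0.43 without replicates 10 and 11 (limma adjusted p = 0.00295). Elovl5, which extends polyunsaturated chains, did not pass (6834 ± 301 against 6467 ± 380, SD, n = 5 each; log2 difference 0.08).

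Among the desaturases Fads1 was lower and Scd2 higher. Fads1, the delta-5 desaturase of polyunsaturated fatty acids (GRCm38 chr19:10182888-10196877, plus strand), measured 1690, 1866, 2223, 2140 and 1698 against 2449, 2282, 2264, 2378 and 2358. All labelled Sirt1-deleted samples lay below all controls, replicate 10 by a small margin. The mean fell from 2346 ± 75.1 to 1923 ± 248 (SD, n = 5 each), a log2 difference of -0.30 (SE 0.08, limma adjusted p = 0.0118), and -0.42 without replicates 10 and 11 (limma adjusted p = 2.01e-04). Fads2, the delta-6 desaturase next to it on the chromosome, measured 1556, 1663, 2567, 2330 and 1414 against 2362, 2286, 2004, 2591 and 2458. Replicates 10 and 11 lay within the controls' range and the other 3 lay well below it. Fads2 differed by -0.33 on the log2 scale (SE 0.15, limma adjusted p = 0.0985), and -0.60 without the pair (limma adjusted p = 3.02e-04).

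Scd2, a stearoyl-CoA desaturase that makes monounsaturated fatty acids (GRCm38 chr19:44293674-44306864, plus strand), measured 12708, 13297, 14456, 14303 and 10560 against 11439, 10397, 10447, 11054 and 10128. Replicates 7, 8, 10 and 11 lay above all controls and replicate 12 lay among them. The mean rose from 10693 ± 537 to 13065 ± 1575 (SD, n = 5 each), a log2 difference of 0.28 (SE 0.08, limma adjusted p = 0.0142), but without replicates 10 and 11 it did not pass (0.18, limma adjusted p = 0.0586). Its paralog Scd1 measured 113, 115, 151, 145 and 85.3 against 170, 73.3, 53.3, 87.8 and 124. The groups overlapped, and the log2 difference was 0.34 (95% interval -0.26 to 0.94, limma adjusted p = 0.352), and 0.14 without the pair. Per kilobase of the longest coding transcript, the control level was 21.1 for Scd1 and 1960 for Scd2, so Scd2 was by far the more abundant of the 2 in these spleens.

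**Figure D4:**
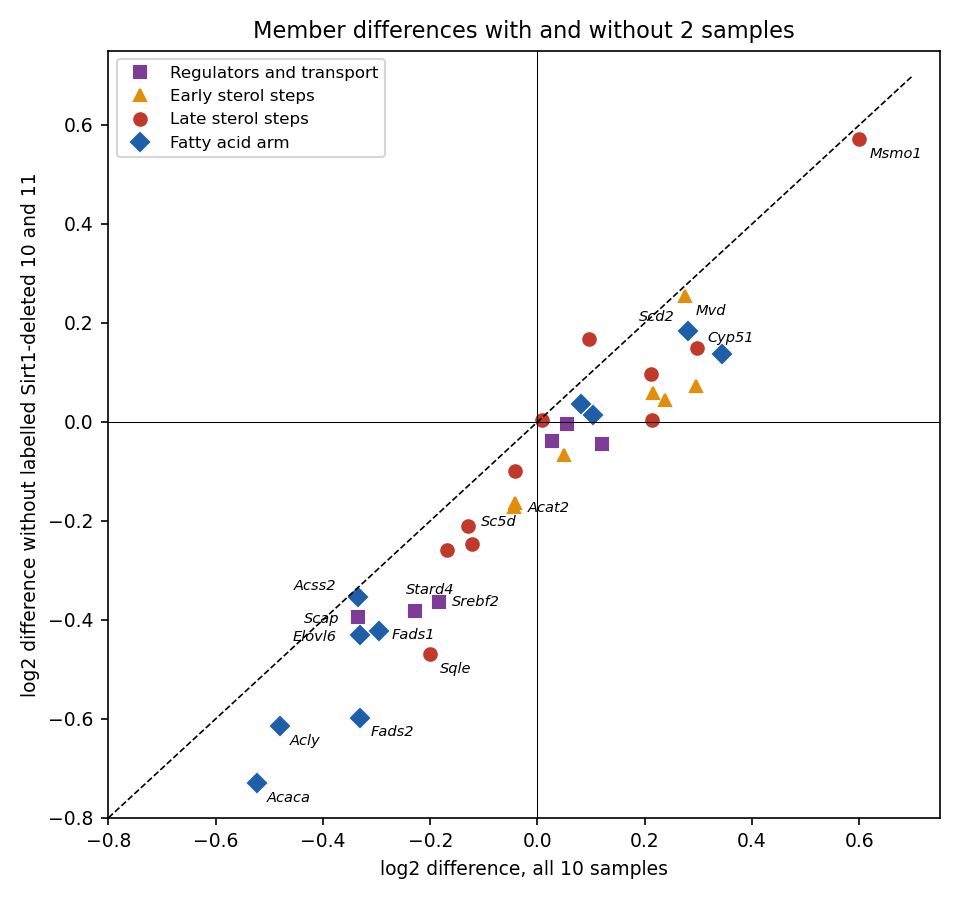
Log2 difference of each gene over all 10 samples (x axis) against the same without labelled Sirt1-deleted replicates 10 and 11 (y axis), with symbols by role and a dashed line of equal values. All genes but Tm7sf2 lie below the line; Msmo1, Mvd and Acss2 lie near it, and Sqle and Fads2 lie furthest below.

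Sequence shared with other genes limits some of these values, because reads from it can be assigned to either gene. In GENCODE M21 transcripts, more than 10% of the 31-base words of 8 members also occur in another gene, and 9 members share none; the shares below are those with the gene that shares most. How many reads were assigned to each copy was not tested. Acaca shares 31.7% with the processed pseudogene Gm5182, which measured 2.03 to 11.7 in the labelled Sirt1-deleted samples and 3.83 to 17.3 in the controls. Acat2 shares 43.7% with Acat3 (22.4 to 59.6 against 35.6 to 48.5). Scap shares 11.3% with the locus 5830462I19Rik on the opposite strand, Fdft1 shares 17.6% with Ctsb, also opposite, which was the more abundant at 5430 to 8200 against 7333 to 9028, and Idi1 shares 18.4% with the pseudogene Gm13502. Fdps, Hmgcs1 and Tm7sf2 share 24.6%, 10.9% and 10.7% with a neighbouring or overlapping gene.

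The wider pathway was read from 4 further lists. Among 12 genes of SREBP processing and its cofactors, none was higher and 5 were lower, where 19.4% of all genes were lower. Without replicates 10 and 11, 8 were lower, where 24.5% of all genes were. Mbtps1, the site-1 protease that cuts SREBP in the Golgi, measured 3295, 3177, 3523, 3459 and 3203 against 4878, 4078, 4216, 4626 and 4009. The groups did not overlap, and the log2 difference was -0.39 (SE 0.06, limma adjusted p = 9.998e-04). Mbtps2, the site-2 protease that makes the next cut, differed by -0.37 (limma adjusted p = 0.00702). Nfya, a subunit of NF-Y, differed by -0.31 (limma adjusted p = 0.00496), and Sp1 by -0.28 (limma adjusted p = 0.0144).

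Among 11 genes of LXR signalling and sterol efflux, 3 were higher and 2 lower, beside 16.8% higher and 19.4% lower over all genes. Apoe, the apolipoprotein that carries exported cholesterol, measured 2127, 2411, 2376, 1626 and 2381 against 1244, 1360, 1258, 1201 and 1243. All labelled Sirt1-deleted samples lay above all controls, replicate 11 by the smallest margin, and the log2 difference was 0.78 (SE 0.10, limma adjusted p = 3.65e-04). Abcg1, a sterol exporter, differed by 0.46 (limma adjusted p = 0.00126), and Nr1h3, which encodes LXR alpha, by 0.65 (limma adjusted p = 0.00785). Lpcat3, an LXR target that remodels phospholipids, differed by -0.32 (limma adjusted p = 0.00834). Apoe and Nr1h3 are also known macrophage genes, and the macrophage marker sums given above were likewise higher in the labelled Sirt1-deleted samples. Within that group, Abcg1 measured 1479, 1626, 1268, 1447 and 1520, with replicates 10 and 11 as the lowest pair. Nr1h3 measured 119, 194, 151, 166 and 146, so replicates 10 and 11 lay among the others. Apoe was lowest in replicate 11, while its value in replicate 10 lay among those of replicates 7, 8 and 12. The part of macrophages in these differences was not tested.

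Among 10 tested genes of the isoprenoid branch, none was higher and 2 were lower (19.4% of all genes were lower): Fntb, the farnesyltransferase beta subunit (-0.39, limma adjusted p = 0.00234), and Ggps1, geranylgeranyl diphosphate synthase (-0.17, limma adjusted p = 0.0371). The Ggps1 call was lost in 5 of 9 alternative settings. Among 20 tested partners of the fatty acid arm, 3 were higher and 4 lower, 7 in all, a share close to the 36.1% of all genes called. Dgat1, which makes triglyceride, measured 1012, 1013, 675, 711 and 1085 against 430, 577, 519, 535 and 549. All labelled Sirt1-deleted samples lay above all controls, with replicates 10 and 11 nearest to them, and the log2 difference was 0.76 (SE 0.14, limma adjusted p = 0.00195). Gpam, which starts glycerolipid synthesis, differed by -0.48 (limma adjusted p = 0.00439). Agpat3, the next acyltransferase, differed by -0.28 (limma adjusted p = 0.00607), and Acsl5, a fatty acyl-CoA synthetase, by 0.27 (limma adjusted p = 0.00764).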

How the data were processed

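The deposited table holds 1 column per sample of normalized counts, which are treated as a signal: kallisto 0.44.0 estimates on mm10, divided by DESeq factors, per the submitters' processing notes. The annotation and the summing to genes are not given in the sources used here. The deposited signal summed to 33.7 to 34.5 M per sample (M, mega). Low values were whole multiples of 1 read (within 0.1, up to 8.5 reads) for 69.1% to 73.9% of entries, so reads were not recovered and no count test was run. From their spacing, depth was roughly 31.3 to 38.2 M reads.

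Samples were grouped by the genotype label. Genes with a mean of at least 10 (15276) were analysed as log2(value + 1) with limma 3.58.1 in R 4.3.3 (group as the only term, intensity trend), with Benjamini-Hochberg adjustment over all of them and a threshold of 0.05. Differences on this scale understate the change of low genes. The script was tested on simulated data. Single genes were also tested by an exact two-sided permutation test. The members and gene lists, and the omission of labelled Sirt1-deleted replicates 10 and 11, were chosen with earlier results of these data known. Members that passed and 21 pathway genes listed by name are described in full, other members by list, and from every other list the 4 genes with the smallest adjusted p that passed. Promoter windows are RefSeq's, and gene coordinates and shared words are from GENCODE M21. Alternatives were other pseudocounts, filters, scalings, limma settings, a rank-sum test, a stricter threshold, and the omission of samples.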

Additional observations from a re-analysis of the deposited data

Results flagged for a closer look

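Single samples that stood apart within a group of 5 were looked for in the 34 members, the 14 partner genes named and Sirt1, 98 sets in all. A set was singled out when the gap of its highest or lowest sample to the next, divided by the whole range, exceeded 0.71, Dixon's 95% critical value. Chance gives about 1 in 20, or 4.9 sets, and 4 were found. Mvd in control replicate 4 measured 640, where the other controls measured 580 to 597. Cyp51 in control replicate 4 measured 1232, where the others measured 1409 to 1451. Tm7sf2 in control replicate 2 measured 301, where the others measured 357 to 372. Lpcat3 in control replicate 2 measured 1453, where the others measured 1300 to 1318. All 4 are control samples. Without control replicate 4 the Cyp51 call was lost (limma adjusted p = 0.0653), while Mvd kept its call.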

How the results depend on the processing

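Of the 10 members called, 9 kept their call under the 9 alternative pseudocounts, filters, scalings and limma settings. The same 9 members kept it in all 10 fits that left out 1 sample. The exception was Cyp51, lost also without the trend (limma adjusted p = 0.0515). The exact rank-sum test, not among those 9 settings, called 7 members (3 higher, 4 lower). These are the members whose groups did not overlap, so Acaca, Elovl6 and Scd2 did not pass it. Their exact two-sided permutation p was 0.0397, 0.0238 and 0.0238. No paired analysis was possible because no replicate number occurs in both groups.

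The count of all genes changed was 3659 (1691 higher, 1968 lower) by the exact rank-sum test and 2850 (1328 higher, 1522 lower) at the stricter adjusted p of 0.01, where 4 members remained past the threshold (1 higher, 3 lower). Upper-quartile rescaling, which moved the median of all genes by 0.06, gave 16 members (10 higher), quantile normalization 8 higher, and the omission of labelled Sirt1-deleted replicates 10 and 11 gave 2 higher and 12 lower. Leaving out 1 sample at a time gave 9 to 14 members (3 to 6 higher, 6 to 10 lower, the 10 without labelled Sirt1-deleted replicate 10). The early sterol median was 0.0445 without that pair, and the cause was not tested.

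Signs turned in members that did not pass. Without the pair, Srebf1 was -0.0385, Insig1 -0.0449, Insig2 -0.00515 and Mvk -0.0675. Under upper-quartile rescaling Acat2 was 0.0169, Pmvk 0.0145 and Dhcr7 0.0178, and under quantile normalization Acat2 was 0.0242 and Dhcr7 0.0207. With 1 sample left out, Srebf1 ranged from -0.0118 to 0.0604, Acat2 from -0.0960 to 0.00272, Mvk from -0.00807 to 0.119, Pmvk from -0.105 to 0.00709 and Ebp from -0.0128 to 0.04999. The approximate depth is an estimate, so no counting intervals are given.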
